A study of Homo sapiens with 6 samples.

Results

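The genes described are 10 components of the Notch pathway, namely the receptors NOTCH1, NOTCH2 and NOTCH3, the ligands JAG1, JAG2 and DLL1, the nuclear partners MAML1 and RBPJ, and the target genes HES1 and HEY1. They were taken by symbol from a table of 14959 genes, and all 10 were found there. The libraries came from UM-SCC1, a long-established line of human head and neck cancer, of the squamous cell type (HNSCC). In each of 3 independent experiments per group the cells received either miR-204-5p mimics or control mimics, and RNA was taken 48 h later. A mimic is a short synthetic RNA duplex that the cell uses as it would use the mature microRNA, and the effect is transient. The comparison asks which Notch transcripts differed once this microRNA was raised in a single cancer line, and nothing else separates the groups in the labels. The mature microRNA is not a row of the table, so its own level was not analysed here.

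Notch signalling passes between neighbouring cells. A ligand of the Jagged or Delta-like family on 1 cell binds a NOTCH receptor on the next, the receptor is cut by ADAM proteases and then by γ-secretase, and its intracellular part enters the nucleus. There it joins the DNA-binding protein RBPJ and a Mastermind-like coactivator such as MAML1 and turns on genes of the HES and HEY families, which encode transcriptional repressors. In stratified squamous epithelium the pathway is known for promoting differentiation, and in HNSCC the NOTCH1 gene is a frequent target of mutation.

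A microRNA recognises messages chiefly through its seed, bases 2 to 8 from its 5′ end, which pairs with complementary letters in a 3′ untranslated region (3′ UTR). The seed of miR-204-5p (RefSeq, GRCh38.p14, chr9:70810031-70810052, minus strand) is shown in capitals in the first line, because it defines which sites were looked for. The lines after it are the sites of 7 or 8 matching letters in the listed transcripts of these genes (GENCODE 29, GRCh38), written as the messenger strand with DNA letters, the match in capitals and a few flanking bases in lower case.
hsa-miR-204-5p: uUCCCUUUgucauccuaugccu
NOTCH1, exon 34, chr9:136495668-136495674, minus strand: tgttggagAAGGGAAgttgaacg
NOTCH2, exon 34, chr1:119912890-119912897, minus strand: gtttggagAAAGGGAAtgtgaaag
NOTCH2, exon 34, chr1:119912765-119912772, minus strand: atctaataAAAGGGAAggtaagat
NOTCH2, exon 34, chr1:119912522-119912528, minus strand: aggtggggAAGGGAAaggtatga
JAG1, exon 26, chr20:10638463-10638469, minus strand: agagcagtAAGGGAAcaagttga
MAML1, exon 5, chr5:179775526-179775532, plus strand: tatgccaaAAAGGGAcaggaggc
MAML1, exon 5, chr5:179775894-179775900, plus strand: gaattcctAAGGGAAccttagca
All these sites lie in the 3′ UTR of the gene's last exon. AAAGGGAA is the 8mer, AAAGGGA the 7mer-m8 and AAGGGAA the 7mer-A1, and each 8mer also holds both shorter words. Both 8mers belong to NOTCH2.

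With miR-204-5p mimics, 7 of the 10 genes passed the test, of which 6 were lower (NOTCH1, NOTCH2, NOTCH3, DLL1, MAML1 and HES1) and 1 was higher (RBPJ). JAG1, JAG2 and HEY1 did not pass. Over all genes 40.8% passed, 16.8% lower and 23.9% higher, so that a pass as such was common in these libraries. The median difference of the 10 genes was -0.42 on the log2 scale, against 0.03 over all 14959 genes. For 9 of the 10 genes the 2 sets of libraries were fully apart, 8 below and 1 above, where 53.6% of all genes were apart, 22.7% wholly below and 30.9% wholly above. Values are in FPKM, which divides the fragments of a gene by its transcript's length in kilobases and by the library's mapped fragments. Differences are those of log2(FPKM + 1), miR-204-5p mimics minus control mimics, tested with limma and adjusted over all genes by the Benjamini-Hochberg method, and a gene passed at an adjusted p under 0.05. In a fit limited to the 11504 genes with a mean of at least 1 FPKM, 5761 passed, as did 7 of the 9 members among them. In RNA from whole cultures, fewer cells that express a gene and less of its RNA per cell cannot be told apart.

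**Figure D1:**
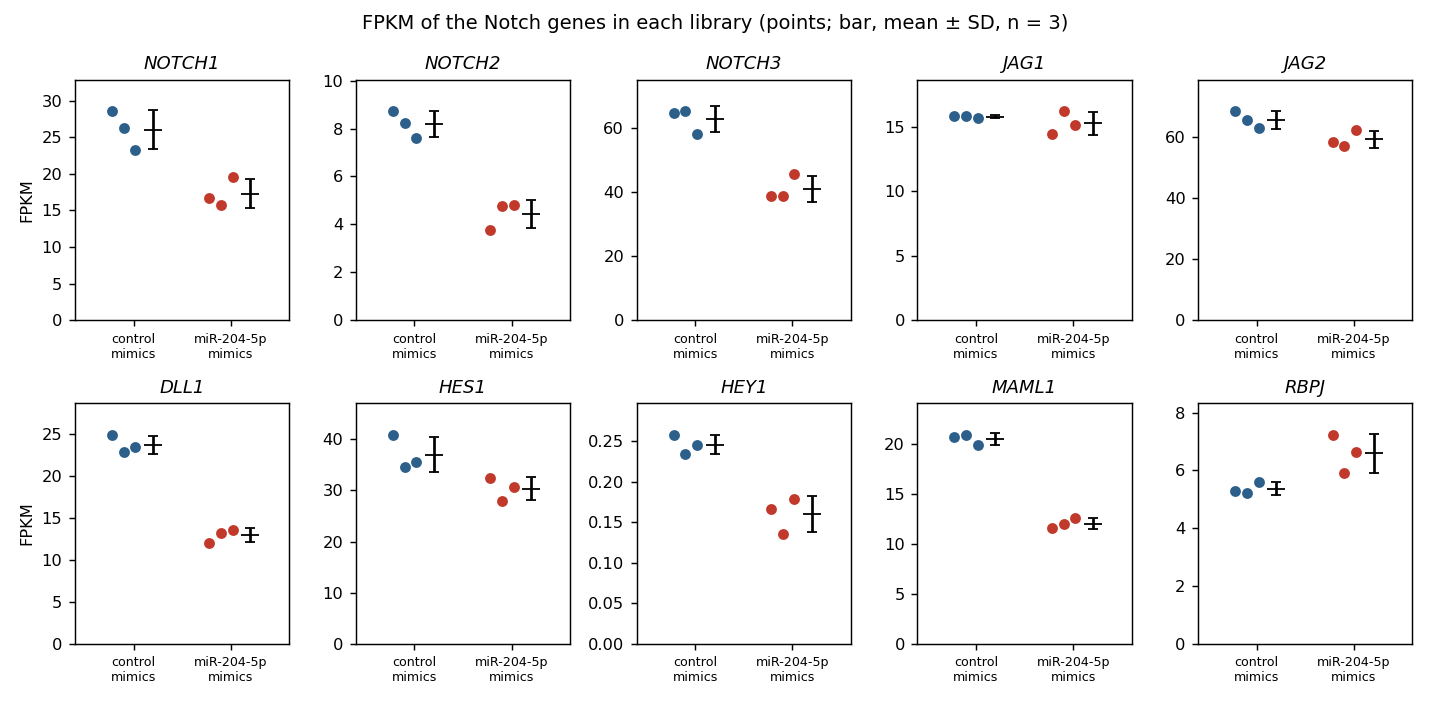
FPKM of each of the 10 Notch genes in the 3 control (blue) and 3 miR-204-5p (red) libraries, each panel on its own linear axis from 0. Points are libraries and the bar beside them is the mean ± SD. The red points lie wholly below the blue ones in every panel but JAG1, where they overlap, and RBPJ, where they lie above.

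The cells had the markers of their label. Of 9 squamous epithelial markers 8 were above 1 FPKM in every library. Of the markers of other cell types, COL1A1 among fibroblast genes and CD68 among leukocyte genes were above 1 FPKM in every library, and of 3 endothelial markers 0 were. Marker levels moved with the groups. The summed squamous markers were 873.1 to 967.6 FPKM with miR-204-5p mimics and 997.4 to 1031 FPKM in control libraries, and their members went both ways: with limma 5 were lower (TP63, DSG3, KRT5, KRT14 and EPCAM), 3 were higher (KRT6A, CDH1 and SFN) and KRT17 did not pass. The summed fibroblast markers, 3 of 5 in the table without COL3A1 and DCN, were 9.81 to 11.5 FPKM against 8.58 to 9.31 FPKM, with COL1A2 and PDGFRB higher and both below 1 FPKM. The endothelial sum was 0.590 to 0.767 FPKM against 0.443 to 0.502 FPKM, with VWF higher and below 1 FPKM. The leukocyte sum overlapped, at 10.7 to 11.9 FPKM against 11.1 to 12.9 FPKM. TP63, the master regulator of squamous basal cells, was 23.9, 28.1 and 30.1 FPKM against 57.6, 55.4 and 54.7 FPKM in control libraries, a difference of -1.01 (limma adjusted p = 0.000276). The part of these shifts in the Notch values was not tested. Read numbers could not be recovered from the FPKM values, since 18.7% to 30.7% of low values per library were whole multiples (within 0.02) of the best step found. Libraries of a group correlated at a Spearman coefficient of 0.9899 to 0.9908 across genes, and libraries of different groups at 0.9733 to 0.9756.

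In control libraries the levels ordered as JAG2, NOTCH3, HES1, NOTCH1, DLL1, MAML1, JAG1, NOTCH2, RBPJ and HEY1, from 65.5 to 0.246 FPKM. The neighbours JAG2 and NOTCH3 overlapped in their libraries, as did NOTCH1 and DLL1, and the other neighbours were separate. FPKM is divided by a transcript length, and whether that was the length of the listed transcript is not known here. The places of RBPJ, listed with a short fragment of the gene, and of NOTCH2, which may share reads with a near-identical copy, are uncertain. JAG2 was the most abundant of the 3 ligand messages and NOTCH3 the most abundant of the 3 receptor messages.

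All 3 receptors were lower. NOTCH1, the receptor most studied in squamous epithelium, measured 16.7, 15.8 and 19.5 FPKM with miR-204-5p mimics and 28.6, 26.3 and 23.3 FPKM with control mimics. Every miR-204-5p library lay below every control library. The means were 17.3 ± 1.95 and 26.1 ± 2.65 FPKM (SD, n = 3), a difference of -0.56 (SE 0.0996, limma adjusted p = 0.00518).

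NOTCH2 had the lowest level of the 3 receptors and the largest difference among them. It measured 3.76, 4.75 and 4.82 FPKM with miR-204-5p mimics, against 8.73, 8.23 and 7.62 FPKM in control libraries, again without overlap. Its mean fell by 45.8%, from 8.19 ± 0.557 to 4.44 ± 0.590 FPKM, with a difference of -0.76 (SE 0.0958, limma adjusted p = 0.00134). NOTCH2 has a partial near-identical copy, NOTCH2NL, and how reads were divided between them is uncertain. NOTCH2NL measured 4.56, 5.92 and 6.68 FPKM against 7.48, 8.01 and 6.38 FPKM, which overlap, and its difference of -0.31 did not pass (limma adjusted p = 0.113).

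NOTCH3, the most abundant receptor message, measured 38.7, 38.6 and 45.6 FPKM with miR-204-5p mimics and 64.7, 65.3 and 57.95 FPKM with control mimics. The highest miR-204-5p library stayed below the lowest control library. The means were 41.0 ± 4.01 and 62.7 ± 4.08 FPKM (SD, n = 3), and the difference was -0.60 (SE 0.0798, limma adjusted p = 0.0016). The fourth receptor, NOTCH4, was barely present, at 0.107 and 0.138 FPKM, and did not pass.

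Summed over NOTCH1 to NOTCH3, receptor messages were 59.1, 59.1 and 69.9 FPKM against 102, 99.8 and 88.9 FPKM, so the mean sum fell by 35.3%. The share of each receptor in the sum was also computed. NOTCH3 made up 65.3% ± 0.125 of the sum with miR-204-5p mimics, compared to 64.7% ± 1.09 in the control group (SD, n = 3), and NOTCH1 27.6% ± 0.799 and 26.9% ± 1.00. NOTCH2 made up 7.10% ± 0.853 and 8.46% ± 0.183, and its share was the one of the 3 in which the groups did not overlap. The log2 ratio of NOTCH2 to NOTCH1 differed by -0.20 (SE 0.110) and that of NOTCH3 to NOTCH1 by -0.04 (SE 0.0478). Neither was distinguishable from the spread between libraries in a two-sided exact permutation test (p = 0.3 and p = 0.4, adjusted p = 0.4 for both over 4 ratios). With 3 libraries against 3 the smallest p this test can give is 0.1.

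The receptor messages are long, at 9306 bases for NOTCH1, 11389 for NOTCH2 and 8666 for NOTCH3, and long messages were more often lower in these libraries. Among genes with a mean of at least 1 FPKM, the 624 with a listed transcript over 8000 bases had a median difference of -0.08, with 33.2% lower and 16.0% higher. The 4259 with at most 2000 bases had a median of 0.09, with 14.8% lower and 31.7% higher. The part of transcript length in the receptor values was not tested.

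**Figure D2:**
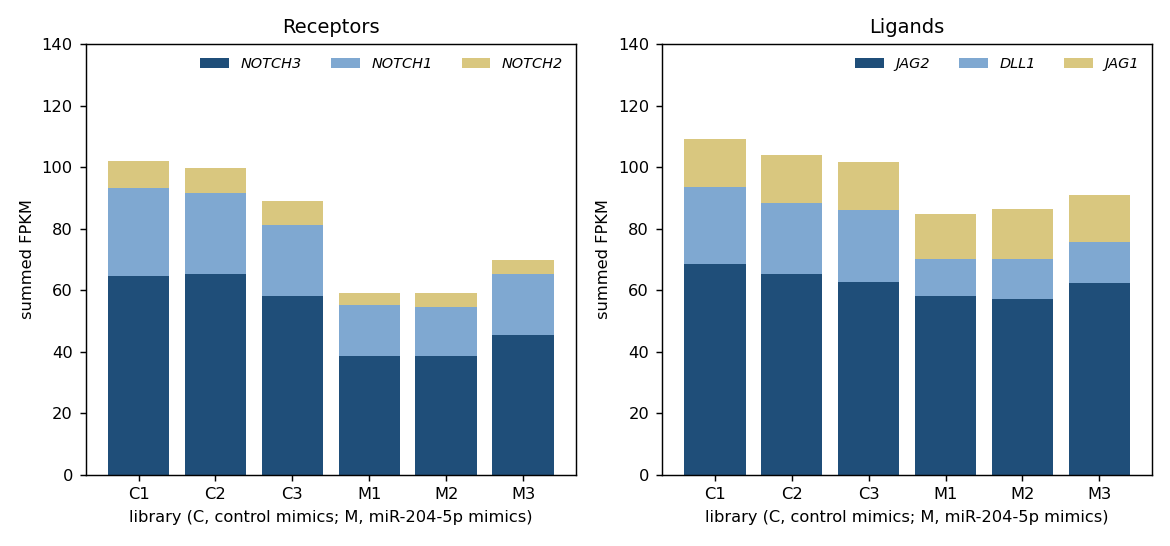
Summed FPKM of the 3 receptors (left) and the 3 ligands (right) in each library, stacked by gene, with control libraries C1 to C3 and miR-204-5p libraries M1 to M3. Receptor bars are lower with all segments reduced, while in the ligand bars the DLL1 segment shrinks and JAG1 and JAG2 stay closer to their control heights.

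Of the 3 ligands, DLL1 was lower, and JAG1 and JAG2 did not pass. DLL1, a Delta-like ligand, had the largest difference of the 10 genes with 1 added to FPKM, and with 0.1 added it was level with NOTCH2 (-0.87 for both). It measured 12.04, 13.2 and 13.6 FPKM with miR-204-5p mimics and 24.9, 22.8 and 23.4 FPKM with control mimics, with a wide gap between the groups. The means were 12.9 ± 0.805 and 23.7 ± 1.09 FPKM (SD, n = 3), so that the mean fell by 45.4%, with a difference of -0.83 (SE 0.0590, limma adjusted p = 0.000175). The genes whose pattern over the 6 libraries was most like that of DLL1 were EDEM1 (Pearson r = 0.9996), USP24 (r = 0.9995) and GRTP1 (r = 0.9992). With 2 groups of 3 libraries such values are common, and 197 genes other than DLL1 had r above 0.99.

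JAG1, a Jagged ligand, measured 14.5, 16.2 and 15.1 FPKM with miR-204-5p mimics and 15.8, 15.8 and 15.7 FPKM with control mimics. The groups overlapped. The difference was -0.05 (SE 0.0504, limma adjusted p = 0.514), and its 95% interval ran from -0.17 to 0.08.

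JAG2, the most abundant ligand message, measured 58.2, 57.0 and 62.2 FPKM against 68.5, 65.4 and 62.7 FPKM in control libraries. The groups were separated only by the narrow gap between 62.2 and 62.7 FPKM. The difference of -0.15 (SE 0.0496) narrowly missed the threshold (limma adjusted p = 0.0567). It passed after scaling to equal sums (adjusted p = 0.0341) or equal medians (adjusted p = 0.0322) of the libraries, and without miR-204-5p replicate 3 (adjusted p = 0.0351). Exons of JAG1 share 79 bases with an antisense gene and those of JAG2 share 469 bases with a gene on the same strand, neither of which is listed, and the strand setting of the counting is not given in the sources used here.

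The summed ligand messages were 84.7, 86.45 and 90.9 FPKM with miR-204-5p mimics and 109, 104 and 102 FPKM with control mimics, and the mean sum fell by 16.8%. DLL1 made up 14.8% ± 0.541 of the ligand sum with miR-204-5p mimics, compared to 22.6% ± 0.571 in the control group (SD, n = 3). JAG2 made up 67.7% ± 1.499 and 62.4% ± 0.659, and JAG1 17.5% ± 1.12 and 15.0% ± 0.478. The libraries of the groups did not overlap in any of these shares. The shares make up the whole sum, so a smaller DLL1 share leaves larger ones for the others. In FPKM the mean of neither JAG1 nor JAG2 rose. The log2 ratio of JAG1 to JAG2 differed by 0.10 (SE 0.0748, two-sided exact permutation p = 0.2, adjusted p = 0.4).

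The nuclear partners went in opposite directions. MAML1, the Mastermind-like coactivator that bridges the Notch complex to histone acetyltransferases, measured 11.5, 12.01 and 12.6 FPKM with miR-204-5p mimics and 20.7, 20.9 and 19.9 FPKM with control mimics. The libraries within each group were tightly grouped and the groups far apart. The means were 12.03 ± 0.505 and 20.5 ± 0.551 FPKM (SD, n = 3), so that the mean fell by 41.3%, with a difference of -0.72 (SE 0.0470, limma adjusted p = 0.000133).

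RBPJ, the DNA-binding protein of the complex, measured 7.23, 5.90 and 6.63 FPKM with miR-204-5p mimics and 5.29, 5.22 and 5.61 FPKM with control mimics. It was the single member whose libraries lay above those of the control group. The difference was 0.25 (SE 0.0778, limma adjusted p = 0.0429). This call was lost in 9 of 13 alternative settings, among them all 3 other scalings and the removal of any library but miR-204-5p replicate 2. RBPJ is listed with a transcript of 609 bases and 5 exons that carries no annotated 3′ UTR, 1 of 31 transcripts annotated for the gene, so the value need not stand for the gene as a whole.

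Of the 2 target genes, HES1 was lower and HEY1 did not pass. HES1, a repressor of the basic helix-loop-helix type and the best known Notch target, measured 32.5, 27.9 and 30.7 FPKM with miR-204-5p mimics and 40.9, 34.7 and 35.5 FPKM with control mimics. The groups did not overlap, and control replicate 1 stood highest. The difference was -0.28 (SE 0.0811, limma adjusted p = 0.0344). It no longer passed without miR-204-5p replicate 2 (adjusted p = 0.0981) or 3 (0.0744), or without control replicate 1 (0.0785) or 3 (0.0574).

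HEY1, a related repressor, was barely present, at 0.166, 0.135 and 0.178 FPKM with miR-204-5p mimics and 0.258, 0.235 and 0.245 FPKM with control mimics. The groups did not overlap, and the difference of -0.10 (SE 0.0364) did not pass (limma adjusted p = 0.0627). Adding 1 to FPKM understates the change of so low a gene, and with 0.1 added the difference was -0.41 (limma adjusted p = 0.0748). The log2 ratio of HEY1 to HES1 differed by 0.17 (SE 0.0826), and the groups did not overlap in it. Its two-sided exact permutation p = 0.1 (adjusted p = 0.4) is the smallest this test can give, so the test could not pass. With 0.1 added the ratio differed by -0.13, so it has no stable direction.

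Genes with and without a seed site were both among those that were lower. Of the 10 genes, 4 held a match of 7 or 8 letters in their longest annotated 3′ UTR, against 27.1% of 14680 genes with a 3′ UTR. Of these 4, NOTCH1, NOTCH2 and MAML1 were lower and JAG1 did not pass. Of the 6 without such a match, NOTCH3, DLL1 and HES1 were lower and RBPJ was higher. An 8mer, present in 8.59% of these 14680 genes, was found in NOTCH2. The longest NOTCH2 3′ UTR belongs to another transcript, and its 8mer (chr1:119994271-119994278) lies outside the listed one. It is thus a different site from the NOTCH2 8mers shown for the listed transcript. The DLL1 3′ UTR, of 668 bases, holds no match. A match describes the letters of the annotated 3′ UTR and is not evidence of pairing, and its absence says only that the letters are not in that stretch.

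**Figure D3:**
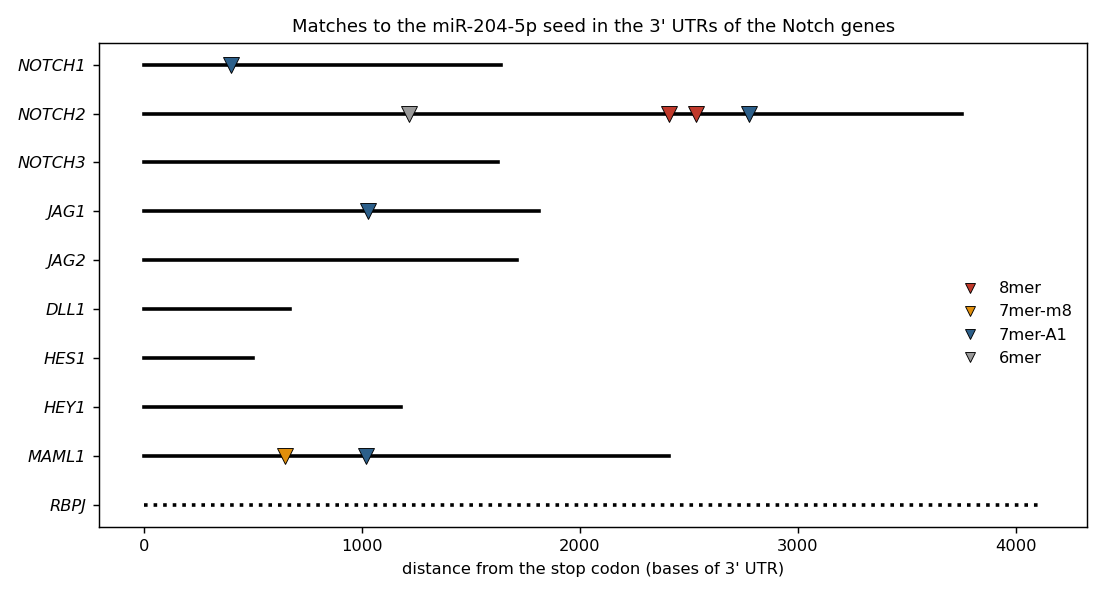
The 3′ UTR of each of the 10 genes, drawn to scale from the stop codon in bases, with triangles at matches to the miR-204-5p seed. Solid lines are the listed transcripts, and RBPJ is dotted because its listed transcript has no annotated 3′ UTR and the longest of the gene is drawn. NOTCH2 holds both 8mers, while NOTCH3, JAG2, DLL1, HES1, HEY1 and RBPJ hold none.

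Beyond these 10 genes, 58 other pathway genes were listed by role, of which 55 were in the table and DLK1, HES5 and HEY2 were not. Of the 55, 17 were lower, 8 were higher and 30 did not pass, with a median difference of -0.09. The 25 that passed make up 45.5% of the list, beside 40.8% of all genes. The latter share includes genes with a mean under 1 FPKM. In the fit limited to the 11504 genes of at least 1 FPKM, 5761 genes passed, 24 of them from this list, 17 lower and 7 higher. By direction, 16.8% of all genes were lower and 23.9% were higher, and the counts by role below stand beside these shares. The shares take no account of transcript length. Of genes over 8000 bases with a mean of at least 1 FPKM, 33.2% were lower and 16.0% higher. CREBBP (10803 bases) and SPEN (12232), which fell, and HDAC2 (9874), which rose, are of this length. The part of length in the counts by role was not tested.

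Of 9 genes for receptor cleavage, 5 were lower, 1 was higher and 3 did not pass, beside 16.8% lower and 23.9% higher of all genes. FURIN, the convertase that cuts the receptor during its maturation, went from 21.7 to 15.4 FPKM, a difference of -0.47 (SE 0.0677, limma adjusted p = 0.00236). ADAM17, a protease that sheds the outer part of the receptor, went from 23.2 to 17.5 FPKM, a difference of -0.39 (limma adjusted p = 0.00130). PSENEN, a subunit of γ-secretase, was the gene that rose, from 15.2 to 18.3 FPKM (0.26, limma adjusted p = 0.00267).

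Among ligand genes outside the 10, DLK2, a non-canonical Delta-like protein, rose from 4.34 to 6.65 FPKM (0.53, limma adjusted p = 0.00703), while DLL3 and DLL4 were below 1 FPKM in every library and did not pass. Of 5 genes for ligand endocytosis, MIB2, a ubiquitin ligase of ligands, fell from 14.3 to 10.3 FPKM (-0.44, limma adjusted p = 0.00115) and the other 4 did not pass. Of the 5 genes for receptor glycosylation 0 passed with limma, and 1 had an unadjusted p under 0.05.

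Of 9 regulators of receptor turnover, 2 were lower, 1 was higher and 6 did not pass, beside 16.8% lower and 23.9% higher of all genes. The Deltex genes DTX4 and DTX3L, which encode ubiquitin ligases, went in opposite directions. DTX4 fell from 15.2 to 9.57 FPKM (-0.61, limma adjusted p = 0.000283) and DTX3L rose from 15.5 to 20.2 FPKM (0.36, limma adjusted p = 0.000790). NUMBL, related to the Notch inhibitor NUMB, fell from 3.47 to 2.78 FPKM (-0.24, limma adjusted p = 0.0219), a call kept in 8 of 13 alternative settings.

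Of 7 coactivators besides MAML1, 3 were lower, 1 was higher and 3 did not pass, beside 16.8% lower and 23.9% higher of all genes. KAT2B, a histone acetyltransferase, measured 2.76, 2.35 and 2.14 FPKM with miR-204-5p mimics and 4.83, 5.27 and 5.00 FPKM with control mimics, and its difference was -0.82 (SE 0.0830, limma adjusted p = 0.000578). CREBBP, another acetyltransferase that works with MAML1, measured 6.61, 6.82 and 7.72 FPKM against 11.7, 11.4 and 10.3 FPKM, a difference of -0.59 (SE 0.0751, limma adjusted p = 0.00136). Neither gene overlapped between groups. MAML2, the close relative of MAML1, rose from 4.52 to 5.79 FPKM (0.30, SE 0.0580, limma adjusted p = 0.00737). Its 3′ UTR holds an 8mer, while that of MAML1, which was lower, holds a 7mer-m8 and a 7mer-A1.
MAML2, exon 5, chr11:95978935-95978942, minus strand: agaagAAAGGGAAgacaattt
The match, in capitals, begins at base 6 of the MAML2 3′ UTR. Of the 55 other pathway genes, 15 held a match of 7 or 8 letters in their longest annotated 3′ UTR. Of these 15, 5 were lower, among them HDAC1, DTX4 and NUMBL, and 2 were higher, MAML2 and DTX3L. The matches of DTX4 lie outside its listed transcript. Of the 40 without such a match, 12 were lower and 6 were higher.

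Of 10 corepressor genes, which keep RBPJ-bound genes silent in the absence of the receptor, 5 were lower, 2 were higher and 3 did not pass. The shares over all genes were 16.8% lower and 23.9% higher. HDAC1, a histone deacetylase, measured 64.8, 63.5 and 59.2 FPKM against 122.7, 127.3 and 126.5 FPKM, a difference of -0.995 (limma adjusted p = 4.70e-05). HDAC2, its paralog, rose from 7.95 to 9.73 FPKM (0.26, limma adjusted p = 0.0135). SPEN, a corepressor that binds RBPJ, fell from 13.6 to 10.6 FPKM (-0.33, limma adjusted p = 0.0305), and TLE1, a Groucho-type partner of HES proteins, rose from 9.63 to 11.4 FPKM (0.22, limma adjusted p = 0.0228). The calls of SPEN and TLE1 were each kept in 8 of 13 alternative settings.

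**Figure D4:**
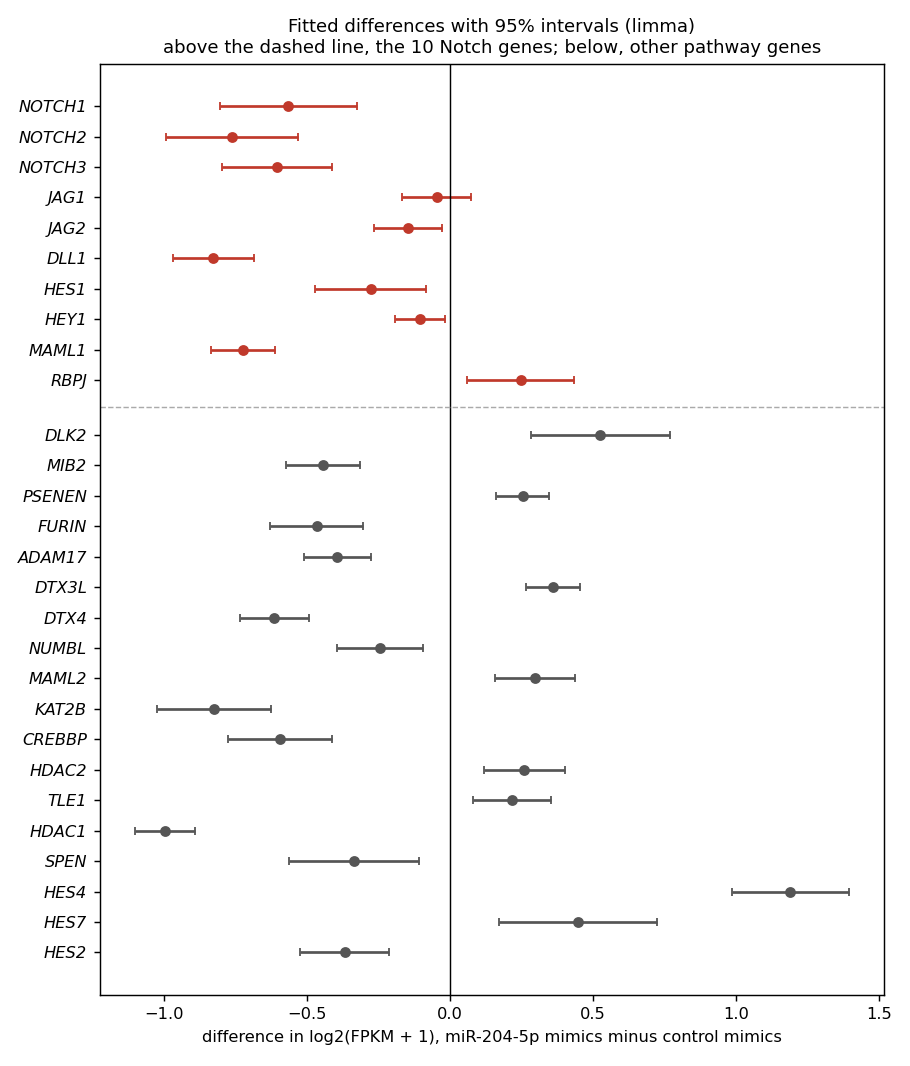
Differences in log2(FPKM + 1) with 95% intervals from limma for the 10 Notch genes (red) and the 18 other pathway genes named in the text (grey), with 0 marked by a vertical line. HES4 lies farthest to the right at 1.19 and HDAC1 farthest to the left at -0.995. The intervals of NOTCH1, NOTCH2, NOTCH3, DLL1 and MAML1 lie wholly below -0.3.

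Among the other HES and HEY genes the direction was mixed. HES4 measured 31.1, 29.3 and 29.9 FPKM with miR-204-5p mimics and 13.1, 10.98 and 14.0 FPKM with control mimics. Its mean was 2.37-fold that of the control group, with a difference of 1.19 (SE 0.0852, limma adjusted p = 0.000175), opposite to HES1 and larger in size than that of any of the 10 genes. HES4 and HES1 thus reached nearly the same level with miR-204-5p mimics, at 30.1 ± 0.924 and 30.4 ± 2.33 FPKM (SD, n = 3), whereas in control libraries they stood at 12.7 ± 1.55 and 37.0 ± 3.39 FPKM.

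HES2 fell from 4.16 to 3.00 FPKM (-0.37, limma adjusted p = 0.00501). HES7 rose from 0.639 to 1.23 FPKM (0.45, limma adjusted p = 0.0212), a call kept in 8 of 12 alternative settings. HES6, HEYL and NRARP, the last encoding a feedback inhibitor of the receptor's intracellular part, did not pass. NRARP measured 29.6, 32.1 and 35.4 FPKM against 30.6, 30.1 and 29.4 FPKM, which overlap, with a difference of 0.10 (SE 0.066, limma adjusted p = 0.270).

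**Figure D5:**
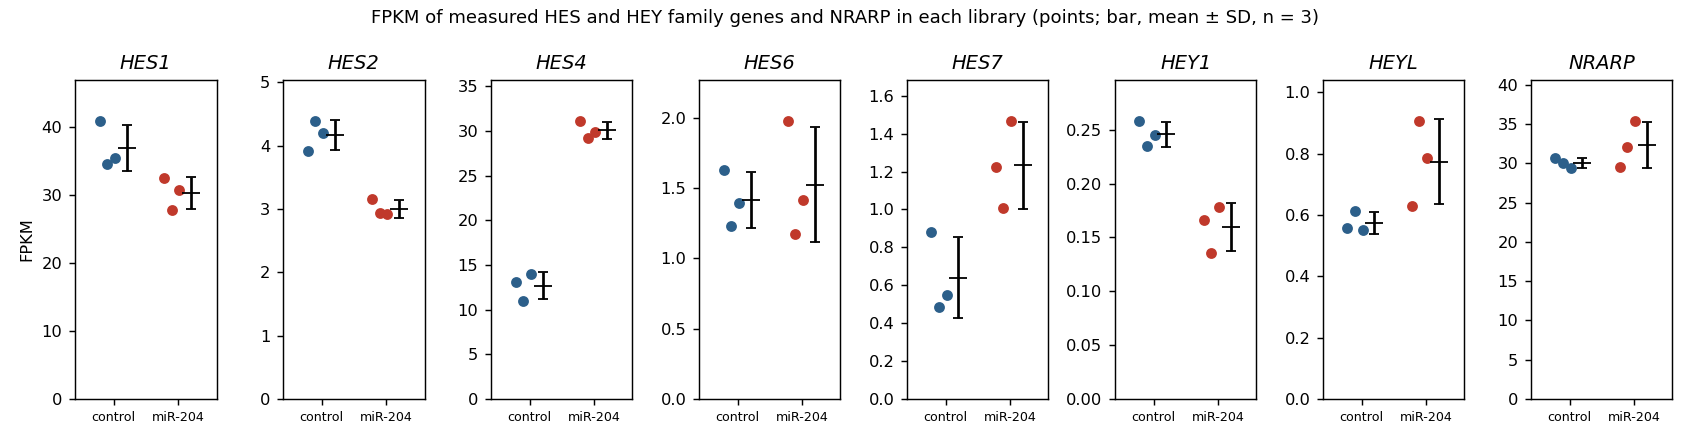
FPKM of the measured HES and HEY family genes and NRARP in the 3 control (blue) and 3 miR-204-5p (red) libraries, each panel on its own linear axis from 0, with mean ± SD beside the points. HES4, HES7 and HEYL lie above their control libraries, HES1, HES2 and HEY1 below, and HES6 and NRARP overlap.

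HES1 and HES4 went in opposite directions and share a feature of their promoters. The RBPJ motif, TGTGGGAA or CGTGGGAA on either strand, was sought in the 300 bases around each start site, 250 before and 50 after, as given by RefSeq on GRCh38.p14, and 2.52% of 35116 such promoters hold it. The stretches with the motif in capitals are shown for both genes, since they are the target genes with the highest levels among those that passed.
HES1, chr3:194136051-194136080, plus strand: ctgaaagttacTGTGGGAAagaaagtttgg
HES4, chr1:1000157-1000186, minus strand: gctggggcgagTGTGGGAAagaatgcggag
The motif begins 86 bases before the start site in HES1 and 78 before it in HES4. Of the 10 genes, 8 had a promoter entry, and HES1 and RBPJ held the motif. In RBPJ it lies in 1 of 5 promoters, and the promoter at the start of the listed transcript does not hold it. A promoter was not at hand for DLL1 or HEY1. Of the 58 other pathway genes 49 had an entry, and HES4, HES5, HEY2 and HEYL held it. Whether RBPJ was bound there was not measured.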

How the data were processed

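RNA from UM-SCC1 cells was sequenced from 3 libraries per group, labelled as miR-204-5p mimics or control mimics. The authors deposited FPKM per gene and library, with 1 listed transcript, its length and coordinates, and the submitters' processing notes name HISAT2, StringTie and hg38 without versions. The authors' own log2 ratios, p-values and FDR, which their methods derive with edgeR, were not used. Of the listed transcripts 14946 are in GENCODE 29, 14844 with the same coordinates. The table holds no read counts, so depth is not known, and precision rests on the spread between libraries.

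The members and gene lists were chosen with earlier results of these data known. R 4.3.3 with limma 3.58.1 fitted log2(FPKM + 1) (lmFit, then eBayes with trend, no filter) over all 14959 genes, two-sided, with the Benjamini-Hochberg adjustment at 0.05, after it had been tested on simulated data. Ratios were tested by exact permutation over libraries. Seed matches were sought in GENCODE 29 3′ UTRs and the RBPJ motif in RefSeq promoters, with Python 3.11.15, pandas 2.3.3, numpy 2.4.6 and scipy 1.17.1.

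All 10 members are named. Of the other pathway genes, those named were the 2 largest rises and 2 largest falls per role among genes that passed with a mean of at least 1 FPKM in a group and no overlap between groups. NOTCH4, DLL3, DLL4, HES6, HEYL, NRARP and NOTCH2NL fall outside this rule and were named after their values had been seen, to complete their families. The alternatives were a pseudocount of 0.1, a minimum mean of 1 FPKM, a block for the replicate number, removal of each library in turn, scaling to equal sums, equal medians or equal quantiles, and eBayes without trend.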

Additional observations from a re-analysis of the deposited data

How the results depend on the processing

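The falls of NOTCH1, NOTCH2, NOTCH3, DLL1 and MAML1 passed in all 13 alternatives run, with limma adjusted p of at most 0.0232, and JAG1 passed in none (adjusted p from 0.205 to 0.897). The number of members called ranged from 5 to 7 and that of all genes from 4971 to 6091, against 7 and 6098. The count of members called higher was 0 in place of 1 with the replicate block and after each of the 3 scalings, and 0 to 1 with a library left out. RBPJ, which makes that count, gave 0.25 with the replicate block, 0.21 at equal sums, 0.23 at equal medians and 0.20 at equal quantiles, none of which passed, and 0.19 to 0.31 with a library left out. JAG2 passed at -0.19 (equal sums) and -0.17 (equal medians) and ranged from -0.18 to -0.11 with a library left out, HES1 from -0.33 to -0.20. HEY1 passed only at equal quantiles (-0.13, adjusted p = 0.0371), and the minimum of 1 FPKM left it untested. The log2 ratio of HEY1 to HES1 turned from 0.17 to -0.13 with a pseudocount of 0.1. The causes were not tested. Deviations of same-numbered libraries correlated at -0.0401, -0.021 and -0.108, and those of differently numbered ones at -0.0691 to 0.11. Each deviation was taken from the mean of its own group of 3. In these deviations same-numbered libraries were not more alike than differently numbered ones. The labels do not say whether same-numbered libraries were set up together. With the block 5096 genes were called, 6 of them members. Without read counts, the counting error of HEY1 and other low genes is not known.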
